A study of Mus musculus with 20 samples.

Results

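The genes described here build the muscle side of the neuromuscular junction, the synapse at which a motor nerve excites a muscle fibre. They were 10 genes chosen by name: the acetylcholine receptor subunits Chrna1, Chrnb1, Chrnd, Chrng and Chrne, the clustering genes Musk, Dok7 and Rapsn, and the esterase genes Ache and Colq. A gene counted as measured when a probe set of the array carried its symbol alone, which held for 9 of the 10 and for 22180 genes in the whole series, and each of the 9 had 1 such probe set. Colq had a probe set only together with another symbol, Hacl1, and therefore has no value of its own here.

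The cells were C2C12, a mouse myoblast line that fuses into myotubes when it differentiates and takes on osteoblast features under bone morphogenetic proteins. Total RNA was profiled on 20 Affymetrix mouse gene arrays, and each value is a log2 signal, on which 1 unit is a doubling. Untreated cells had 2 arrays, cells given methanol 3, cells given recombinant BMP4 at 10, 100 and 300 ng/ml 2 each, and cells given compound 942, 178 or 181 at 6.25, 12.5 and 25 µM 1 each. The series' design text sets 3 drugs beside BMP4 in myoblasts. All arrays shared this 1 cell line in growth medium with serum and were cultured with no nerve. No source used here states how long the treatment lasted before RNA was taken. The untreated cells served as the control of BMP4 and the methanol arrays as that of the compounds. Nothing in the labels tells whether replicate arrays stem from separate cultures, and the p-values cover only the spread among these arrays, which could be technical.

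The acetylcholine receptor of muscle is a ring of subunits around a cation channel. Fetal muscle builds it from the alpha, beta, delta and gamma subunits, and adult muscle replaces gamma with epsilon. Agrin from the nerve binds Lrp4, which activates the receptor kinase MuSK, Dok-7 holds MuSK active from inside the cell, and rapsyn ties the receptors into a dense cluster. Acetylcholinesterase, anchored in the cleft by the collagen tail ColQ, ends each signal by splitting the transmitter.

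Myogenic bHLH factors such as MyoD and myogenin switch on receptor subunit genes in differentiating muscle by binding E-boxes, and the ETS factor GABP binds the N-box of genes kept on beneath the synapse. The stretches before the starts of 4 receptor subunit genes are shown because the array values below separate these genes, with E-boxes (CANNTG, which reads the same on both strands) and the N-box (CCGGAA, searched on both strands) in capitals. All are 5′ to 3′ along the gene, from RefSeq on GRCm38.p6: Chrng at chr1:87205561-87205810 (plus strand), Chrna1 at chr2:73580339-73580588 (minus strand), Chrnb1 at chr11:69795967-69796187 (minus strand) and Chrne at chr11:70619214-70619444 (minus strand).
Chrng: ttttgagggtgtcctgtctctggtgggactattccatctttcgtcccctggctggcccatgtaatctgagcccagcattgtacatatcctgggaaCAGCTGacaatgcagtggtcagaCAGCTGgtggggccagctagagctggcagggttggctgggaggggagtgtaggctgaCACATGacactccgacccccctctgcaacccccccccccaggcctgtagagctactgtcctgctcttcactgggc
Chrna1: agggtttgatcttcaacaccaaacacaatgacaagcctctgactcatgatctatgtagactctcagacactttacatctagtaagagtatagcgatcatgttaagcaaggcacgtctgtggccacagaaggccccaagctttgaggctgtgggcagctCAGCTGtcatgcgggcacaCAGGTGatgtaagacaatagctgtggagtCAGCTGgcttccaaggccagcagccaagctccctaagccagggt
Chrnb1: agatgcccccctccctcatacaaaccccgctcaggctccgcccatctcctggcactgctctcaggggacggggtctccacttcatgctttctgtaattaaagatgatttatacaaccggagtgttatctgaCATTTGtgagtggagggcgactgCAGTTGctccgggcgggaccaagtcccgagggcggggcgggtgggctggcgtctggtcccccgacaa
Chrne: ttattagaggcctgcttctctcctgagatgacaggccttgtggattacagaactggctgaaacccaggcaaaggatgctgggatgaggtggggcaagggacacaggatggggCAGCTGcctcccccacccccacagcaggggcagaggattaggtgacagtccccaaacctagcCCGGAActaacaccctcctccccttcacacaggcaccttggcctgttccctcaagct
A window of 250 bases before the start was available for 7 of the 10 genes, Dok7 having 2 windows. Chrng, Chrna1, Chrnb1 and Musk each held 3 E-boxes. The stretches of Chrnb1 and Chrne above were cut to 221 and 231 bases, because their RefSeq gene records begin inside the window. The third E-box of Chrnb1, 29 bases before the start used for the window, lies past that cut, inside the gene record. Of 32851 mouse windows of that length, 12.21% held at least 3 E-boxes and 66.22% at least 1. Chrne and Ache held 1 E-box each, and the windows of Dok7 held 1 and 0. The form CAGCTG stood in Chrng, Chrna1, Musk and Chrne, against 4271 of the 32851 windows. An N-box stood only in Chrne among these 7 genes, 76 bases before the start used for the window, against 12.03% of all windows. These are matches of letters, not measured binding sites.

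The array medians lay between 4.93 and 5.05. The sample titles are numbered without a gap from 10 to 29, and the order of treatments starts again with untreated cells at 18. From that order 2 runs were inferred, 10 to 17 and 18 to 29, which no label names as batches, and replicate 1 of untreated, methanol and each BMP4 dose lay in the first. Replicate 1 of BMP4 at 300 ng/ml and the 3 arrays of compound 942 were labelled by the method called Affyexpress and the other 16 arrays by the standard method. Because the model held a term for the labelling method, its BMP4 300 ng/ml value rested on replicate 2 alone. Myoblast markers such as Des and Pax7 averaged 10.32 to 10.37 on the control arrays, and myotube markers such as Myog and Myh3 averaged 10.31 to 10.68. On the BMP4 arrays these averages spanned 8.97 to 10.29 and 6.14 to 10.27, and all 7 myotube markers and 4 of 7 myoblast markers fell with BMP4. Whether fewer cells expressed the junction genes or each cell made less RNA cannot be told apart in such bulk samples.

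BMP4 lowered the 4 subunit genes of the fetal receptor together with Rapsn and Dok7, and raised Musk. Averaged over the doses and set against untreated cells with limma, 6 of the 9 measured genes fell (4.60% of all genes did) and 1 rose (4.20% of all genes). Chrng, Chrnd, Chrnb1, Rapsn, Dok7 and Chrna1 fell, Musk rose, and Chrne and Ache did not pass the test. The median difference was -0.59 over the 9 genes and -0.01 over all genes. All 6 BMP4 arrays lay below all 5 untreated and methanol arrays for Chrna1, Chrnb1, Chrnd and Chrng, 4 of 9 against 4.59% of all genes, and above them for Musk, 1 of 9 against 3.19%.

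**Figure D1:**
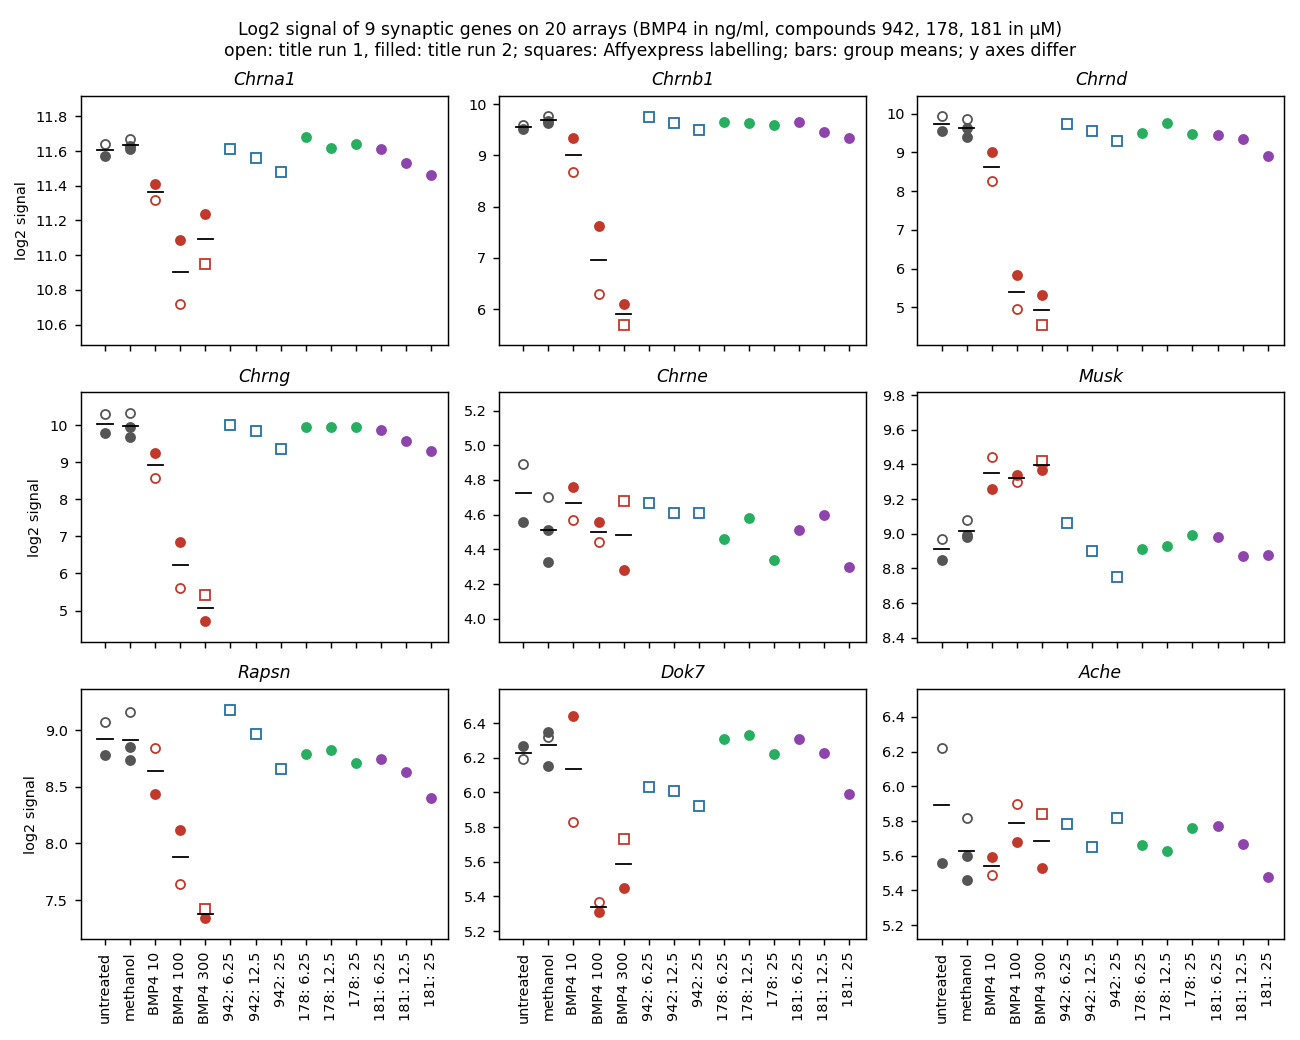
Log2 signal of each of the 9 genes (y axis) on every array, grouped along the x axis by treatment and dose, with one point per array, open for the first run of title numbers, filled for the second and square for Affyexpress labelling. Bars mark group means and the y axes differ between genes; the control arrays of Chrng lie between 9.68 and 10.32 and its BMP4 arrays between 4.71 and 9.26, whereas the BMP4 arrays of Musk, at 9.26 to 9.44, lie above its controls at 8.85 to 9.08.

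Chrng encodes the gamma subunit that marks the fetal receptor. Its log2 signal was 10.29 and 9.79 in untreated cells and 10.32, 9.94 and 9.68 with methanol. It was 8.57 and 9.26 at 10 ng/ml BMP4, 5.61 and 6.85 at 100 ng/ml, and 5.43 and 4.71 at 300 ng/ml. The doses did not overlap with one another or with the controls. The controls averaged 10.00 ± 0.29 (SD, n = 5) and the BMP4 arrays 6.74 ± 1.83 (SD, n = 6), a spread that holds the differences between doses. Over the doses the Chrng signal fell by 3.42 against untreated cells (SE 0.30, limma adjusted p = 2.97e-05).

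Chrnd encodes the delta subunit, a part of both the fetal and the adult receptor. It stood at 9.93 and 9.55 in untreated cells and at 9.86, 9.63 and 9.40 with methanol. With BMP4 it read 8.27 and 9.0 at 10 ng/ml, 4.96 and 5.85 at 100 ng/ml, and 4.56 and 5.32 at 300 ng/ml. Its 100 and 300 ng/ml arrays overlapped, and both doses lay below 10 ng/ml. Over the doses it fell by 3.28 (SE 0.24, limma adjusted p = 9.22e-06). Chrnd lay below the array median on 2 BMP4 arrays and Chrng on 1, and the deposited values carry no detection call, so no fold is given for them.

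Chrnb1 encodes the beta subunit, which rapsyn and the MuSK pathway use to hold the receptor in clusters. Its signal was 9.60 and 9.52 untreated, and 9.64 to 9.76 in the 3 methanol arrays. BMP4 gave 8.68 and 9.34 at 10 ng/ml, 6.29 and 7.62 at 100 ng/ml, and 5.70 and 6.10 at 300 ng/ml. The doses again formed separate steps, with the widest gap between replicates at 100 ng/ml. The fall was 4.60-fold (-2.20, SE 0.28, limma adjusted p = 3.44e-04).

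Chrna1, the alpha subunit that carries most of the acetylcholine binding site, had a small fall. Its log2 signals were 11.64 and 11.57 untreated, 11.61 to 11.67 with methanol, 11.32 and 11.41 at 10 ng/ml, 10.72 and 11.09 at 100 ng/ml, and 10.95 and 11.24 at 300 ng/ml. Every BMP4 array lay below every control array, and the 2 higher doses overlapped. It fell by 0.44 (1.35-fold, SE 0.09, limma adjusted p = 0.0105). Leaving out untreated replicate 1 (adjusted p = 0.114) or replicate 2 (0.0508) ended that call, as it did when the variance was not tied to the mean signal (0.0562).

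Chrne, the adult epsilon subunit, lay below the array median on all 20 arrays. It ranged from 4.33 to 4.89 on the controls and from 4.28 to 4.76 with BMP4. The groups overlapped throughout, and the BMP4 difference did not pass (-0.24, limma adjusted p = 0.450). Within each array Chrng minus Chrne was 5.41 ± 0.21 (SD, n = 5) in controls and 2.19 ± 1.72 (SD, n = 6) with BMP4. The values carry no detection call, so whether so low a signal could show a fall of Chrne was not tested. The difference between Chrng and Chrne restates the fall of Chrng.

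Musk, the receptor kinase that starts clustering, went the other way. It read 8.97 and 8.85 untreated and 9.08, 8.99 and 8.98 with methanol. It read 9.44 and 9.26 at 10 ng/ml, 9.30 and 9.34 at 100 ng/ml, and 9.42 and 9.37 at 300 ng/ml. The 6 BMP4 arrays spanned only 0.18 and did not separate by dose. The rise over the doses was 0.44 (1.36-fold, SE 0.09, limma adjusted p = 0.00900), and it was not called without untreated replicate 2 (adjusted p = 0.106).

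Rapsn encodes rapsyn, the scaffold under the receptor. Its signals were 9.07 and 8.78 untreated, 9.16, 8.85 and 8.74 with methanol, 8.84 and 8.44 at 10 ng/ml, 7.64 and 8.12 at 100 ng/ml, and 7.42 and 7.34 at 300 ng/ml. At 10 ng/ml it overlapped with the controls, and at the higher doses it lay below them. It fell by 0.97 (1.96-fold, SE 0.17, limma adjusted p = 0.00280). The adjusted p became 0.0647 when untreated replicate 1 was left out and 0.0586 when 1 mean was fitted to all doses.

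Dok7, the adaptor that keeps MuSK active, read 6.19 and 6.27 untreated and 6.15 to 6.35 with methanol. BMP4 gave 5.83 and 6.44 at 10 ng/ml, 5.37 and 5.31 at 100 ng/ml, and 5.73 and 5.45 at 300 ng/ml. Replicate 2 at 10 ng/ml was its highest array of all 20. The fall of 0.59 (SE 0.16, limma adjusted p = 0.0396) was close to the threshold and was lost in 9 of 31 alternative settings at adjusted p values of 0.0520 to 0.201. These left out either untreated array, any methanol array, either 100 ng/ml array or 300 ng/ml replicate 2, or fitted 1 mean to all doses.

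Ache, the esterase, ranged from 5.46 to 6.22 on the controls and from 5.49 to 5.90 with BMP4. Untreated replicate 1 was its highest array, and the groups overlapped. The BMP4 difference was -0.27 (limma adjusted p = 0.479).

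The genes followed BMP4 dose in different ways. At 10 ng/ml none of the 9 passed against untreated cells in limma, where 1.10% of all genes did, and 4 had an unadjusted p under 0.05 (10.0% of all genes): Chrna1, Chrnd, Chrng and Musk. Yet both 10 ng/ml arrays lay below all 5 controls for Chrna1, Chrnb1, Chrnd and Chrng, 4 of 9 against 8.92% of all genes, and above them for Musk, 1 of 9 against 6.53%. The differences were -1.13 for Chrng (adjusted p = 0.220), -1.10 for Chrnd (0.116) and 0.44 for Musk (0.0876). Chrnd and Chrng passed when either 100 ng/ml array was left out (adjusted p = 0.0329 and 0.0459 without replicate 1). Musk passed with the inferred run as a block (adjusted p = 0.0176), and Musk and Chrnd with methanol added to the untreated control (0.0434 and 0.0276). For Chrng, Chrnd and Chrnb1 replicate 1 was lower than replicate 2 at this dose. Against the untreated array of its own run, Chrng stood at -1.72 in the first run and -0.53 in the second, and Musk at 0.47 and 0.41.

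At 100 ng/ml 6 genes fell (4.75% of all genes) and Musk rose (4.40%). Chrnd fell by 4.33 (SE 0.29, limma adjusted p = 3.71e-06). The differences were -3.81 for Chrng, -2.60 for Chrnb1, -1.05 for Rapsn, -0.89 for Dok7 and -0.70 for Chrna1. Without untreated replicate 1 Rapsn (adjusted p = 0.0610) and Dok7 (0.0532) did not pass, nor did Dok7 without replicate 2 (0.0693). The rise of Musk, 0.41 (adjusted p = 0.0318), was lost in 9 settings, at 0.0643 to 0.182, among them without either untreated array, either 100 ng/ml array or methanol replicate 2 or 3.

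At 300 ng/ml, from replicate 2 alone, 4 genes fell (4.28% of all genes) and none rose in limma (3.70%). Chrng differed by -5.33 (SE 0.43, limma adjusted p = 2.13e-05), a value taken at a signal of 4.71, below the array median. The differences were -4.42 for Chrnd, -3.46 for Chrnb1 and -1.58 for Rapsn. At an unadjusted p under 0.05 stood 7 of the 9, against 18.8% of all genes, and 3 of these did not pass after adjustment. Musk differed by 0.47 (adjusted p = 0.0510), Dok7 by -0.78 (0.0634) and Chrna1 by -0.37 (0.137). Without the labelling term, which lets both replicates count, Musk (adjusted p = 0.00565), Dok7 (0.0379) and Chrna1 (0.0103) passed as well. They also passed with the inferred run as a block (0.00839, 0.0317 and 0.0470).

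Per doubling of dose Chrng, Chrnd, Chrnb1 and Rapsn fell, 4 of 9 against 3.08% of all genes, and none rose in limma (2.32%). The slopes were -0.85 for Chrng (SE 0.08, limma adjusted p = 1.42e-04), -0.72 for Chrnd, -0.60 for Chrnb1 and -0.26 for Rapsn, the last not passing without 300 ng/ml replicate 2 (adjusted p = 0.0663). Dok7 had a slope of -0.15 (adjusted p = 0.0696, and 0.0312 with the run as a block). Musk had a slope of 0.0027 (SE 0.03, adjusted p = 0.979) and Chrna1 of -0.04 (0.474). At 10 ng/ml Musk already stood at 94.9% of its log2 difference at 300 ng/ml, Chrna1 at 65.8%, Chrnd at 24.9%, Chrng at 21.1%, Rapsn at 17.8%, Chrnb1 at 15.8% and Dok7 at 12.5%. At 100 ng/ml Chrna1 stood at 190%, Dok7 at 114%, Chrnd at 98.0%, Musk at 88.3%, Chrnb1 at 75.3%, Chrng at 71.4% and Rapsn at 66.0%. These shares divide by a 300 ng/ml value from replicate 2 alone, set against untreated cells of both runs, so they carry any difference between the runs. Against the untreated array of its own run, Chrna1 stood at -0.92 at 100 ng/ml and -0.70 at 300 ng/ml in the first run. In the second run Chrna1 stood at -0.48 and -0.33.

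**Figure D2:**
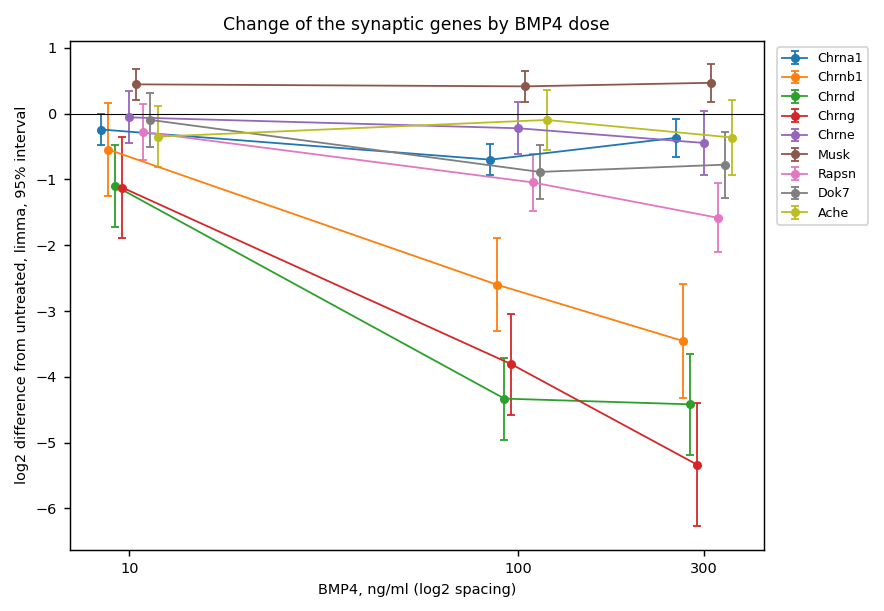
BMP4 dose in ng/ml (x axis, log spacing) against the fitted log2 difference from untreated cells (y axis) for the 9 genes, with bars for 95% intervals and points shifted sideways for legibility. Chrng runs from -1.13 at 10 ng/ml to -5.33 at 300 ng/ml, and Musk lies at 0.41 to 0.47 at all doses.

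Myogenin and MyoD are the transcription factors best known to act on these genes. Myog read 11.17 and 10.94 untreated, 10.87 and 11.30 at 10 ng/ml, 6.83 and 8.17 at 100 ng/ml, and 6.64 and 5.94 at 300 ng/ml. At 10 ng/ml both arrays of Chrng, Chrnd and Chrnb1 lay below both untreated ones, and the Myog arrays lay on both sides of them. No junction gene passed at that dose in limma, and the part of Myog in the changes was not tested. Across the 14 means of treatment and dose, which the BMP4 doses dominate, the Pearson correlation with Myog was 0.98 for Chrnb1, Chrnd and Chrng, 0.96 for Rapsn, 0.89 for Chrna1, 0.85 for Dok7 and -0.67 for Musk. With Myod1, which encodes MyoD, the correlation was 0.93 for Chrnb1, 0.92 for Rapsn, 0.91 for Chrng and 0.89 for Chrnd. Chrna1 stood at 0.73, Dok7 at 0.70 and Musk at -0.57. These correlations describe shared levels over the same arrays.

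The genes most like each member were searched over the same 14 means among 12607 genes with a mean signal of at least 5. Chrng was nearest to Myom2 and Klf5 (r = 0.997 for each), Chrnd to Tnnc1 (0.996) and Tnnt3 (0.995), and Chrnb1 to Pdlim3 (0.9989) and Cdh15 (0.997). Myom2, Tnnc1 and Tnnt3 encode sarcomere proteins, and Cdh15 the muscle cadherin. Chrna1 was nearest to Xirp1 (0.987) and Cacna1s (0.982), and Rapsn to Rrad (0.981) and Tspan14 (0.975). Dok7 was nearest to Mib1 (0.958) and Gm8894 (0.951), and Musk to Mmab and Sobp (0.959 for each). Chrne reached only 0.837 with Vmn1r43 and 0.828 with Spsb3, and Ache 0.896 with Tagln2 and 0.890 with Ly6g6f. Among the subunits Chrnb1 and Chrng correlated at 0.995, Chrnd and Chrng at 0.993, and Chrng and Chrne at 0.18.

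Around the junction genes, 7 lists of partners held 59 genes, of which 56 were measured. With BMP4 over the doses 4 of the 56 rose (4.20% of all genes did) and 11 fell (4.60% of all genes), with a median difference of -0.07. The same shares of all genes apply to the counts in each partner and marker list below. Of 6 genes of the nerve's signals, Erbb3, a neuregulin receptor, fell and Nrg1, which encodes neuregulin-1, rose. Erbb3 read 8.70 and 8.29 untreated, 6.47 and 7.62 at 10 ng/ml, 4.62 and 4.96 at 100 ng/ml, and 4.59 and 5.03 at 300 ng/ml, a difference of -2.87 (SE 0.25, limma adjusted p = 3.24e-05). Nrg1 read 7.86 and 7.91 untreated, 8.63 and 8.10 at 10 ng/ml, 9.34 and 9.01 at 100 ng/ml, and 9.26 and 9.40 at 300 ng/ml, a rise of 1.09 (SE 0.14, adjusted p = 4.98e-04). The BMP4 and untreated arrays of both genes did not overlap. Agrn, the clustering signal, differed by 0.12 (adjusted p = 0.703) and Lrp4, its receptor, by 0.34 (0.151). Yet all 6 BMP4 arrays of Lrp4, at 8.14 to 8.61, lay above all 5 controls, at 7.74 to 8.12 (3.19% of all genes). Those of Erbb2 in the same list, at 7.56 to 7.76, lay below the controls, at 7.83 to 7.99 (4.59% of all genes). Erbb2 did not pass either.

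Of 14 measured genes that act downstream of MuSK, Abl2, a tyrosine kinase, fell by 0.66 (limma adjusted p = 0.00269; 0.0533 without untreated replicate 1) and the rest did not pass. In the scaffold 4 of 10 fell. The difference was -2.18 for Sntb1, which encodes beta-1 syntrophin (SE 0.15, limma adjusted p = 3.85e-06), -1.68 for Dtna, alpha-dystrobrevin, and -1.62 for Nes, the intermediate filament nestin. Dtna did not pass when 1 mean was fitted to all doses (adjusted p = 0.0827). Of 9 genes of the synaptic matrix and its esterases, Lama4 rose by 1.13, Lamb2 by 0.97 and Lama5 fell by 0.77. All 3 encode laminin chains of the synaptic basal lamina, and Lama4 did not pass with 1 mean for all doses (adjusted p = 0.163). Of 2 measured excitation channels, Cacna1s, the calcium channel that couples excitation to contraction, fell by 2.02. Alg14, of the 5 glycosylation genes tied to inherited weakness of the junction, rose by 0.55. With methanol as the control of BMP4 its rise was 0.325 and was not called (limma adjusted p = 0.0588). Without untreated replicate 1 its rise was 0.38 and was not called either.

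Among 10 regulators 3 fell, with differences of -2.88 for Myog, -1.25 for Hdac9 and -0.67 for Myod1. Myod1 was not called without untreated replicate 1 (adjusted p = 0.176) or replicate 2 (0.0741), or without BMP4 300 ng/ml replicate 2 (0.546), and with 1 mean for all doses neither Myog (0.130) nor Myod1 (0.397) passed. Gabpa and Gabpb1, the subunits of the factor that binds the N-box, differed by 0.11 and 0.05 (limma adjusted p = 0.631 and 0.903). None of 11 other nicotinic subunits, which belong mainly to neurons, passed in limma, and 0 had an unadjusted p under 0.05.

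**Figure D3:**
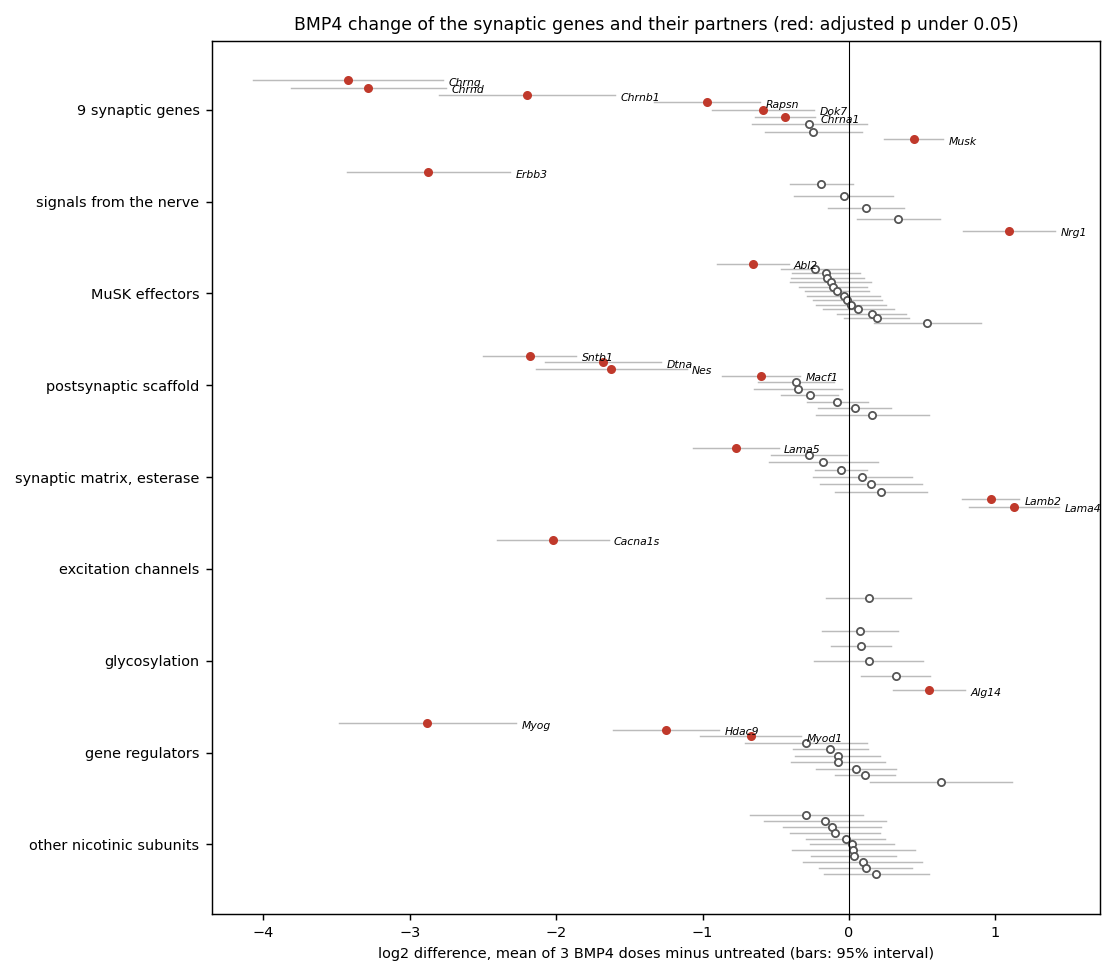
Log2 difference of BMP4, averaged over the doses, from untreated cells (x axis) for the 9 junction genes, the 7 partner lists and the other nicotinic subunits (rows), with one point per gene, bars for 95% intervals and red for an adjusted p under 0.05. Chrng at -3.42, Chrnd at -3.28 and Erbb3 at -2.87 stand at the low end, and Lama4 at 1.13 and Nrg1 at 1.09 at the high end.

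Markers of other cell types at a junction averaged below the myoblast and myotube markers, though the Schwann cell average lay above the array medians. Of 4 measured Schwann cell markers 1 rose, S100b by 0.55 (limma adjusted p = 0.0332; lost in 8 of 30 settings, at 0.107 without untreated replicate 1). Their average was 5.64 to 5.81 on the controls and 5.65 to 5.93 with BMP4. Of 6 motor neuron markers 1 rose, the choline transporter gene Slc5a7, by 1.52. It read 4.06 and 3.90 untreated, 5.27 and 4.72 at 10 ng/ml, 5.84 and 6.02 at 100 ng/ml, and 5.67 and 5.56 at 300 ng/ml. The motor neuron average was 4.52 to 4.64 on the controls and 4.66 to 5.06 with BMP4, and Chat, Mnx1 and Isl1 did not pass. None of the 4 endothelial and 4 macrophage markers passed in limma (0 and 1 at an unadjusted p under 0.05), with averages of at most 4.72 on the BMP4 arrays. Of 6 osteoblast markers 4 rose over the doses, and the other 2 had differences below 0 that did not pass. At 100 ng/ml and at 300 ng/ml 1 osteoblast marker fell. The part of these shifts in the changes of the junction genes was not tested.

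Methanol left no junction gene past the threshold against untreated cells in limma, at an adjusted or unadjusted p under 0.05 (0.00% and 2.86% of all genes). The differences were -0.06 for Chrng (95% interval -0.76 to 0.64), -0.11 for Chrnd (-0.67 to 0.46) and 0.11 for Musk (-0.11 to 0.32).

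No junction gene passed for compound 942, 178 or 181 over the doses, at any single dose or as a slope on dose. Over the doses 0.00% of all genes passed for 942, 0.00% for 178 and 0.00451% for 181, and at a single dose at most 0.0180%, for 181 at 25 µM. Each dose had 1 array, and the error came from the groups with several. At an unadjusted p under 0.05 none of the 9 stood out for 942 or 178 in these tests, where 333 and 547 of the 22180 genes did over the doses. For 181 only Rapsn at 25 µM did (limma adjusted p = 0.760), 1 of 9 against 6.38% of all genes.

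With compound 181 the array values stepped down with dose. Chrng read 9.88, 9.58 and 9.31 at 6.25, 12.5 and 25 µM, Chrnd 9.45, 9.35 and 8.92, and Rapsn 8.75, 8.63 and 8.40. At 25 µM all 3 lay below the 3 methanol arrays. Against methanol the differences at 25 µM were -0.72 for Chrnd (95% interval -1.44 to 0.0032), -0.67 for Chrng (-1.56 to 0.21) and -0.52 for Rapsn (-1.02 to -0.03). Against the 2 methanol arrays of its own run they were -0.60, -0.50 and -0.40. Over the genes, 7 of 9 were lower at each step of dose, against 19.4% of all genes. The myotube markers were also lower at 25 µM of 181, in 7 of 7 with a median of -0.68, against -0.29 for the junction genes and -0.01 for all genes, with 0 passing in limma and 4 at an unadjusted p under 0.05. Their part in the junction values was not tested.

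Compound 178 held the genes near methanol. Chrng read 9.96, 9.94 and 9.95 over the doses, Chrnd 9.49, 9.76 and 9.48, and Rapsn 8.79, 8.83 and 8.71. These values lay within the range of the methanol arrays except the last. Over the doses Chrng differed by -0.03 (95% interval -0.66 to 0.60) and Rapsn by -0.14 (-0.49 to 0.21). Only 1 of 9 was lower at each step (16.4% of all genes).

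With compound 942 Chrng read 9.99, 9.83 and 9.35, Chrnd 9.74, 9.56 and 9.29, Rapsn 9.18, 8.97 and 8.66, and Musk 9.06, 8.90 and 8.75. The 25 µM array was the lowest of all 20 for Musk, the gene that rose with BMP4. At each step 8 of 9 were lower (21.1% of all genes). Title numbers rose with dose within each compound, so the order of the samples and the dose cannot be told apart. Only 1 methanol array shared the run of 942, and against it the 25 µM values were -0.97 for Chrng, -0.58 for Chrnd, -0.50 for Rapsn and -0.33 for Musk.

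The size of the 942 values depended on the labelling term, which for these arrays is the difference between both BMP4 arrays at 300 ng/ml (0.73 for Chrng and -0.76 for Chrnd). Over the doses Chrng differed from methanol by -0.98 with the term (95% interval -2.24 to 0.27) and by -0.26 without it (-0.89 to 0.38). Chrnd stood at 0.66 with the term (-0.36 to 1.67) and at -0.10 without it (-0.65 to 0.44), a change of sign in a value that passed in neither fit. Musk at 25 µM stood at -0.32 with the term (-0.74 to 0.11) and at -0.27 without it (-0.53 to -0.01), also without passing after adjustment. The median of the 7 myotube markers at that dose was -0.34 with the term, with 5 lower. Both BMP4 arrays behind the term lay in different inferred runs, so the term carries any difference between runs or replicates as well. Whether the 3 arrays of compound 942 differ from methanol by the compound, the labelling or the run cannot be told apart with the arrays at hand.

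The compounds were compared in 3 pairs, as means and at the 3 matched doses, and no junction gene passed in any of these comparisons in limma (at most 0.00451% of all genes did). Over the doses 181 minus 178 was -0.36 for Chrng (95% interval -0.99 to 0.27), -0.34 for Chrnd (-0.85 to 0.17) and -0.18 for Rapsn (-0.53 to 0.17). At 25 µM it was -0.64 for Chrng (-1.72 to 0.44). For 942 minus 181 Chrnd stood at 1.05 (0.03 to 2.07), which did not pass after adjustment and is a value that carries the labelling term. These intervals are wide, and they do not show that the compounds act alike.

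**Figure D4:**
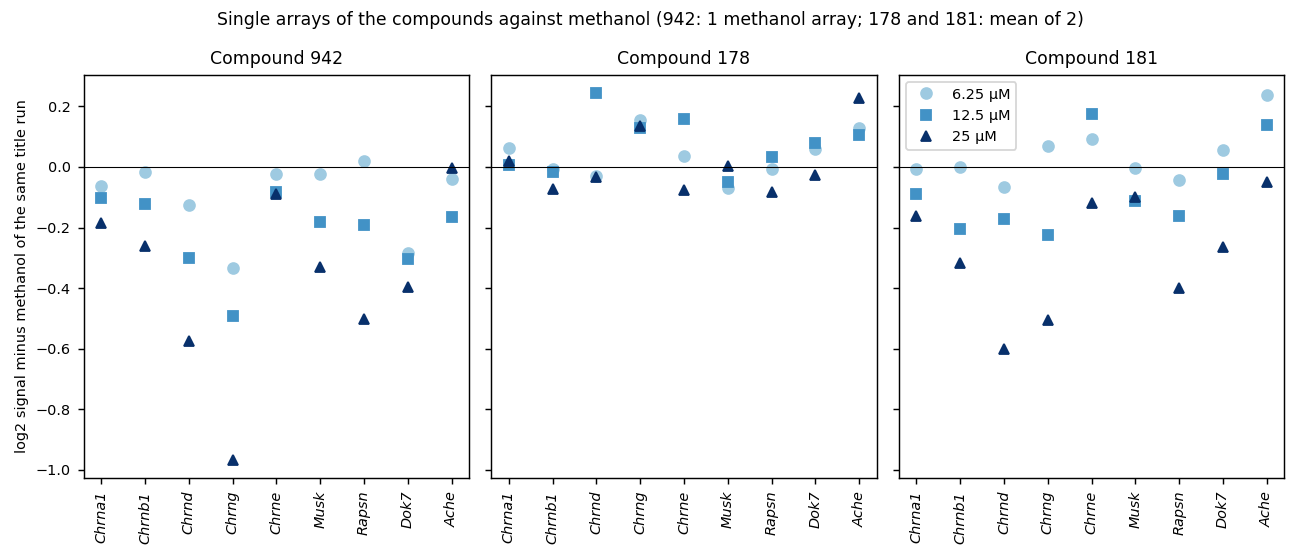
Log2 signal of each single compound array minus the methanol of the same title run (y axis) for the 9 genes (x axis), in 1 panel per compound, with symbols for 6.25, 12.5 and 25 µM. Chrng at 25 µM stands at -0.97 for compound 942 (against 1 methanol array), 0.14 for 178 and -0.50 for 181 (each against the mean of 2).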

How the data were processed

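RNA of C2C12 cells was measured on 20 arrays. The authors deposited log2 signals, 1 per probe set and array, made in Partek 6.5 with RMA per the submitters' processing notes, and these were not rescaled. No source used here states whether the batch correction in the labelling protocol was applied. Of 41345 probe sets, 23521 carried 1 gene symbol. The 22180 genes so named were tested, each on its probe set of highest mean. Arrays carry no counts, and their number limits the precision.

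A model of 14 group means plus a labelling term was fitted to all 20 arrays with limma 3.58.1 in R 4.3.3, with a trend on mean signal, 5 residual and a median of 6.73 prior degrees of freedom. Genes passed at a Benjamini-Hochberg adjusted p under 0.05 over all genes, and intervals are unadjusted 95% intervals. The script was tested on simulated data. Named were all members, up to 3 genes per direction of each list that passed for BMP4 over the doses, and 2 most similar genes per member. Levels of genes that did not pass are given for some partners as examples chosen after their values were seen. Members and lists were chosen with earlier results of these data known. The doses 100 ng/ml and 12.5 µM come from sample titles. Alternatives were another control, labelling term or run in the model, scaling, filter, probe set rule and arrays left out. The compound slopes, values against methanol of the same run and counts at an unadjusted p were added after seeing the data. Promoter sequences are from RefSeq (GRCm38.p6).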

Additional observations from a re-analysis of the deposited data

How the results depend on the processing

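The fit was repeated in 31 settings, of which leaving out both 10 ng/ml arrays was chosen after seeing the data, and no value past the threshold changed its sign in them. Chrnb1, Chrnd and Chrng passed for BMP4 over the doses in all 31, with Chrng between -4.57 and -2.47. The count of the 9 genes that fell over the doses was 6, and 3 to 6 when 1 array was left out, the 3 being the value without untreated replicate 1. This count was 4 when 1 mean was fitted to all doses and 5 when the variance was not tied to the mean signal. At 10 ng/ml the count that fell was 0, but 1 with the untreated and methanol arrays pooled into 1 control, and 0 to 2 when 1 array was left out, the 2 arising without either 100 ng/ml array. Leaving out either 100 ng/ml array kept the 10 ng/ml differences at -1.10 for Chrnd and -1.13 for Chrng, and only their p-values changed. Chrng minus Chrne, which follows Chrng alone, differed by -3.22 between BMP4 and all controls. Against the untreated arrays alone the value was -3.13, with an exact permutation p of 0.0714, the smallest that 28 splits allow. This pair of genes was chosen with the fall of Chrng already known, so the p-value is no separate test. With arrays left out in turn the difference ranged from -3.68 to -2.87. Without BMP4 300 ng/ml replicate 2 the mean held only 10 and 100 ng/ml, and no 300 ng/ml or compound 942 value could be fitted. Another scaling moved the median of all genes by at most 0.0723. The sample titles carry no replicate numbers that could pair arrays. With the inferred run as a block in the model, 2988 genes passed for BMP4 over the doses in place of 1953, with 6 of the 9 genes falling and Musk rising as before. The block added Musk at 10 ng/ml (adjusted p = 0.0176), Musk (0.00839), Dok7 (0.0317) and Chrna1 (0.0470) at 300 ng/ml, and the slope of Dok7 (0.0312), and ended no BMP4 call of the 9. Few arrays, and for the compounds 1 per dose, limit what could be detected.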

Other observations

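Among the partners, Hdac9, a class IIa histone deacetylase that acts on genes controlled by muscle activity, had a level response to BMP4 dose. It read 6.56 and 6.87 in untreated cells, 5.22 and 5.53 at 10 ng/ml, 5.05 and 5.59 at 100 ng/ml, and 4.99 and 5.71 at 300 ng/ml. With compound 942 Hdac9 read 6.55, 6.24 and 5.65 at 6.25, 12.5 and 25 µM, below the methanol arrays at 6.77 to 6.97. Each of these doses had a single array. All arrays of compound 942 were labelled by Affyexpress and the methanol arrays by the standard method. The part of the labelling or of the inferred run in these lower values was not tested.

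The probe set shared by Colq and Hacl1 read 5.99 and 5.57 in untreated cells, 5.90, 5.56 and 5.56 with methanol, and 5.32 to 5.57 on the 6 BMP4 arrays. It cannot be assigned to either gene.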
